A study of Mus musculus with 3 samples.

Results

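The cells described here are B cells of mouse bone marrow that carry the transcript of the IgM heavy chain but none of the IgD heavy chain, the surface pattern of an immature B cell. They were chosen by raw UMI counts: at least 200 genes, at most 5% mitochondrial UMIs, at least 1 UMI of Ms4a1 (CD20), 2 of Ighm and 1 of Cd74 (the MHC class II invariant chain), and 0 of Ighd, Rag1, Rag2 and Igll1. A UMI is 1 tagged RNA molecule counted once. The rule selected 1435 of the 31292 cells that passed the filters, out of 36035 barcodes. The Control library gave 397 of its 10674 cells, the IR library 512 of 10345 and the IR+CBD library 526 of 10273. The levels of the 7 genes in the rule are therefore a description and not a result.

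The study asked how cannabidiol (CBD), a plant cannabinoid, acts on the marrow of irradiated mice. Single-cell libraries were made from C57BL/6 male mice at day 14, with the marrow of 3 mice pooled in each library and 1 library in each group; their age was not given in the sources used here. The Control group was not irradiated, the IR group received 6.0 Gy of gamma rays with the CBD solvent, and the IR+CBD group received the same dose with 4 intraperitoneal injections of 50 mg/kg CBD around the time of exposure. Before loading, sorted fractions were remixed at 5 parts Lin-Kit+, 4 parts Lin-Kit- and 1 part Lin+, so a share of cells refers to the remixed suspension and not to the marrow. With 1 library per group there is no replicate check of any difference between groups: all intervals below are 95% intervals that cover counting error only, and no p-value is given.

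B cells develop in the marrow in ordered steps. Pro-B and pre-B cells cut and join their immunoglobulin genes with the RAG1 and RAG2 recombinases, and a surrogate light chain that contains the Igll1 product is replaced by a true kappa or lambda light chain. The immature B cell then shows IgM, is tested for reactivity to self, lowers its recombinase, and leaves for the spleen, where IgD, CD23 and CR2 appear on maturing cells. B-lineage cells are among the most radiosensitive cells of the marrow, and type I interferon acts on nearly all of them through a complex that contains IRF9, which binds a repeated GAAA element in the promoters of its target genes.

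Depth was similar across the libraries but not within them. The median member held 3220, 3302 and 2892 UMIs in the Control, IR and IR+CBD libraries, against 12480, 14211 and 12502 over all cells that passed the filters. No cell barcode was shared between the members of any 2 libraries, although 35, 41 and 51 barcodes were shared between whole libraries. A minority of members also carried RNA of other blood lineages. With 48 genes summed per cell, which define T, NK, monocyte, neutrophil, erythroid, dendritic, progenitor, megakaryocyte, basophil and stromal cells and include the plasma cell gene Jchain, 64, 61 and 55 members (Control, IR and IR+CBD) held 20 or more such UMIs. Those few cells were deep, with medians of 24597, 34645 and 22086 UMIs, and they held 60.6%, 59.1% and 51.7% of all the members' UMIs.

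**Figure D1:**
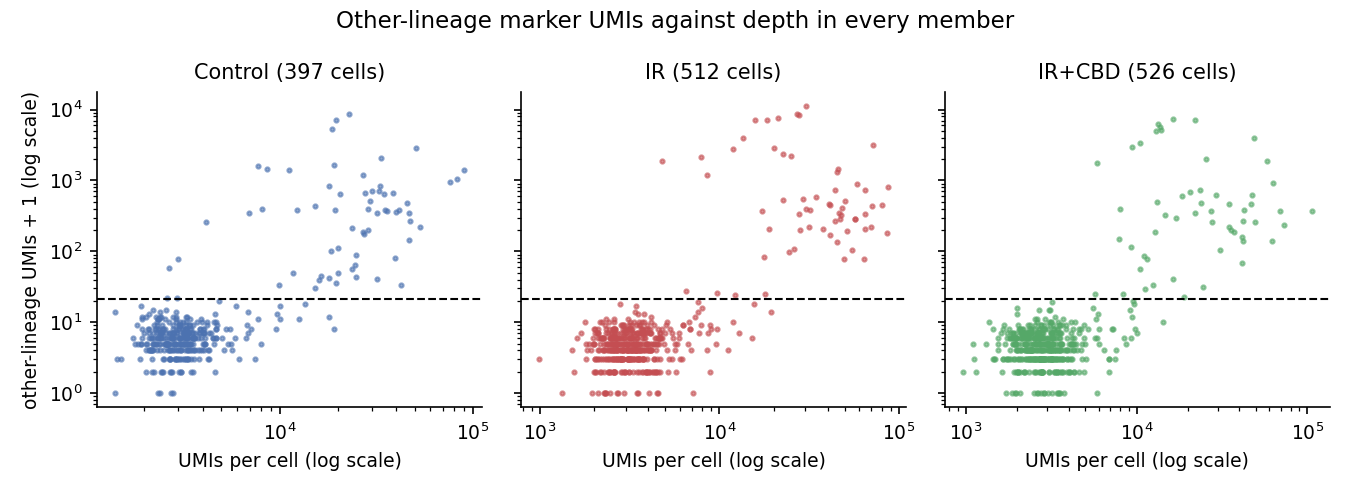
Total UMIs of each member (horizontal axis, log scale) against its UMIs of other-lineage genes plus 1 (vertical axis, log scale) in the 3 libraries; each point is 1 cell and the dashed line marks 20 other-lineage UMIs. Most cells lie below the line, with medians of 3028, 3148 and 2791 UMIs, and 64, 61 and 55 cells lie on or above it, with medians of 24597, 34645 and 22086 UMIs.

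Neutrophil genes led the other-lineage UMIs in 45, 41 and 35 of these cells, erythroid genes in 1, 14 and 10, and Jchain in 8, 0 and 2. A doublet caller (Scrublet) marked 50, 51 and 39 of them. The 8 Jchain-rich cells of the Control library alone held 84.1% of the members' Igkc UMIs there, and the 2 of the IR+CBD library held 39.6%. Summed over all members, Igkc, the kappa constant region, stood at 24723, 4659 and 9019 UMIs per 1000000 (CPM), and without the mixed cells at 8690, 10310 and 10313. For that reason the gene values below are sums over the 333, 451 and 471 members under 20 other-lineage UMIs, a limit set after the data were seen; ratios between libraries that differ from these by more than 1.5 times over all members are given with the genes they concern. These remaining members held 1135272, 1602731 and 1454971 UMIs.

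The label was checked against genes the rule did not use. Cd79a and Cd79b, the signalling chains of the B cell receptor, were detected in 97.9%, 99.8% and 97.5% and in 98.8%, 99.6% and 98.1% of the remaining members (Control, IR and IR+CBD). Neutrophils of the same libraries, defined by Ltf and Ngp, had medians of 12867, 13089 and 11479 UMIs per cell. Cd79a was detected in 10.6%, 8.94% and 8.21% of them. Of these neutrophils 5, 11 and 8 met the whole rule themselves, so free RNA and mixed cells cannot be told apart there. Vpreb3, a chaperone of immature B cells, was found in 88.9%, 96.2% and 93.8% of members against 11.6%, 11.7% and 8.39% of neutrophils. Cd93 (AA4.1), the classical surface marker of immature B cells, was sparse. After thinning every cell to 2000 UMIs it was found in 14.9%, 12.9% and 12.3% of members and 1.62% to 2.52% of neutrophils (unthinned, 17.2% to 18.9% and 10.1% to 14.7%). Among B cells Cd93 did not single out the members, where it was at 74.9, 61.8 and 70.8 CPM. Cells with 2 or more Ighd UMIs had 23.9, 61.5 and 130 CPM, from 11, 18 and 22 UMIs. Cells with a UMI of Rag1 or Rag2 had 120, 106 and 147 CPM, from 9, 30 and 34 UMIs. The 5 genes of the T cell list summed to 3, 3 and 2 UMIs over these members and the 3 genes of marrow stroma and endothelium to 0, 5 and 1, with Cd3e, Lepr and Cxcl12 at 0 UMIs in each library. Neutrophil genes remained at a median of 4, 3 and 3 UMIs per cell and summed to 1320, 952 and 1058 CPM. A UMI of Cd79a was also found in 92.2%, 91.8% and 90.9% of the mixed cells.

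The thresholds of the rule cut unevenly. Members with exactly 2 Ighm UMIs numbered 4, 1 and 3, and cells just outside with 1 Ighm UMI numbered 9, 2 and 1. Ms4a1 divided far more cells: 63, 95 and 88 members had exactly 1 Ms4a1 UMI, and 870, 749 and 660 cells met every other criterion with none. For Ighd, 110, 102 and 109 cells had exactly 1 UMI and were left out. Their level of H2-Eb1, an MHC class II chain, was 1093, 704 and 684 CPM, between that of the members (397, 366 and 329 CPM) and that of cells with 2 or more Ighd UMIs (1963, 1298 and 945 CPM). At this depth, 0 Ighd UMIs do not show that a cell made no Ighd.

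The share of the remixed cells that met the rule was higher in both irradiated libraries. Control stood at 3.72% (Clopper-Pearson interval 3.37 to 4.10), IR at 4.95% (4.54 to 5.38) and IR+CBD at 5.12% (4.70 to 5.56). The IR to Control ratio was 1.33 (1.17 to 1.51), the IR+CBD to IR ratio was 1.03 (0.919 to 1.16), and the IR+CBD to Control ratio was 1.38 (1.21 to 1.56). The neighbouring stages differed in opposite directions. Rag-positive cells, which met the rule but for a UMI of Rag1 or Rag2, made up 0.290%, 0.783% and 0.759% of cells, with an IR to Control ratio of 2.70 (1.78 to 4.07). Ighd-positive cells, with 2 or more Ighd UMIs, made up 1.18%, 0.609% and 0.526%, with an IR to Control ratio of 0.516 (0.382 to 0.697). The Control library was the high one for Ighd-positive cells and the low one for the other two stages, and no interval of Control overlapped one of the irradiated libraries. As a share of B-lineage cells (Cd79a and Cd79b both detected) the members were 10.5%, 12.0% and 14.1%, and the ratios became 1.15 (1.01 to 1.30) for IR to Control and 1.17 (1.05 to 1.32) for IR+CBD to IR.

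**Figure D2:**
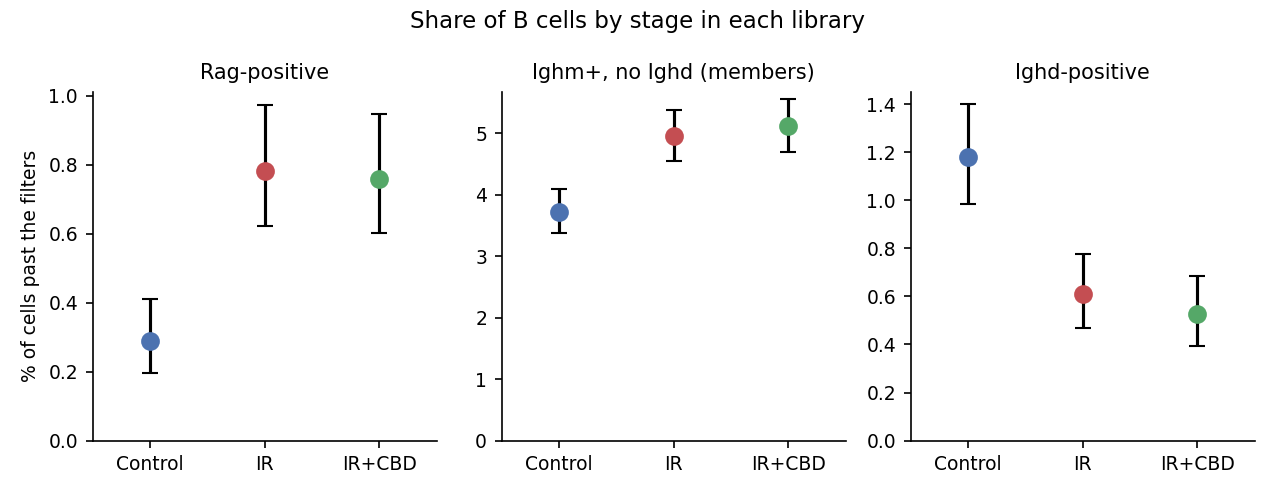
Share of cells past the filters (vertical axes, percent, each from 0) that were Rag-positive, members, or Ighd-positive in each library; points are the share in 1 library and bars the 95% Clopper-Pearson interval. Control lies below both irradiated libraries in the first 2 panels and above them in the last.

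The genes that set the members apart from their neighbours included several known to mark the steps of B cell maturation. Vpreb3 was at 2693, 2786 and 2647 CPM in Rag-positive cells (Control, IR and IR+CBD), 1982, 2613 and 2325 CPM in members and 475, 1410 and 1294 CPM in Ighd-positive cells. The 3 libraries were alike at the first stage and Control was the lowest at the others. Tifa, an adaptor of NF-kB signalling, was at 653, 604 and 714 CPM, then 169, 261 and 244, then 91.1, 205 and 154. Sox4, a transcription factor of early lymphoid cells, was at 560, 417 and 463 CPM, then 177, 250 and 199, then 78.1, 133 and 130. Il7r, the receptor of interleukin 7 that drives pro-B and pre-B growth, was at 120, 120 and 199 CPM in Rag-positive cells and 50.2, 56.8 and 34.4 CPM in members. Bmf and Bcl2l1, which promote and block cell death, were also lower in members than in Rag-positive cells in each library, with ratios of 0.281 to 0.467 and 0.307 to 0.396.

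Other genes were higher at each later stage, among them genes of antigen presentation and survival. H2-Aa, an MHC class II chain, was at 53.3, 173 and 268 CPM in Rag-positive cells, 468, 532 and 485 CPM in members and 2295, 1492 and 945 CPM in Ighd-positive cells. Bcl2, the survival factor of mature lymphocytes, was at 13.3, 10.6 and 8.65 CPM, then 75.8, 42.4 and 59.1, then 215, 164 and 159. Its first values rest on 1, 3 and 2 UMIs. Rgs1, a regulator of chemokine receptor signalling, and Cd83, an activation marker, were higher in members than in Rag-positive cells in every library, but on few UMIs: Rgs1 was at 13.3, 7.07 and 13 CPM in Rag-positive cells, and its Control ratio of 5.68 had an interval of 0.993 to 227. Of the genes with the lowest member to Ighd-positive ratios in all 3 libraries, Zfp318, which permits IgD transcripts to form, was at 34.4, 28.7 and 33.0 CPM in members, with ratios of 0.203, 0.420 and 0.399. Nr4a1, which responds to antigen receptor signalling, had ratios of 0.284, 0.325 and 0.455.

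The fixed lists differed in how many of their genes followed the order of the stages. The share of all genes in either order was not counted, so these counts describe the lists and do not set them apart from other genes. Of the 11 MHC class II genes with 50 or more UMIs over the 3 stages, 8, 9 and 9 were highest in Ighd-positive cells and lowest in Rag-positive cells. Of the 12, 13 and 13 such genes on the list of pre-B and immature genes, 8, 9 and 9 had the opposite order. Of the peripheral maturation genes, 9 of 17, 6 of 14 and 6 of 15 were highest in Ighd-positive and lowest in Rag-positive cells. The B-lineage transcription factors were split, with 9, 4 and 10 in that order and 11, 9 and 6 in the opposite one, of 29, 28 and 29, and of 25, 24 and 24 B cell receptor signalling genes 8, 11 and 12 had that order and 3, 2 and 4 the opposite one. Cd24a (heat-stable antigen) had neither order. It was at 877, 755 and 894 CPM in members and 520, 580 and 688 CPM in Rag-positive cells. Ighd-positive cells had 371, 635 and 732 CPM, so the members were the highest of the 3 stages in each library. In IR and IR+CBD the intervals of members and Ighd-positive cells overlapped. Cells with exactly 1 Ighd UMI were at 557, 821 and 839 CPM, above the members in IR. The Rag-positive groups held 25, 75 and 65 cells and the Ighd-positive groups 117, 60 and 45 cells under 20 other-lineage UMIs.

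**Figure D3:**
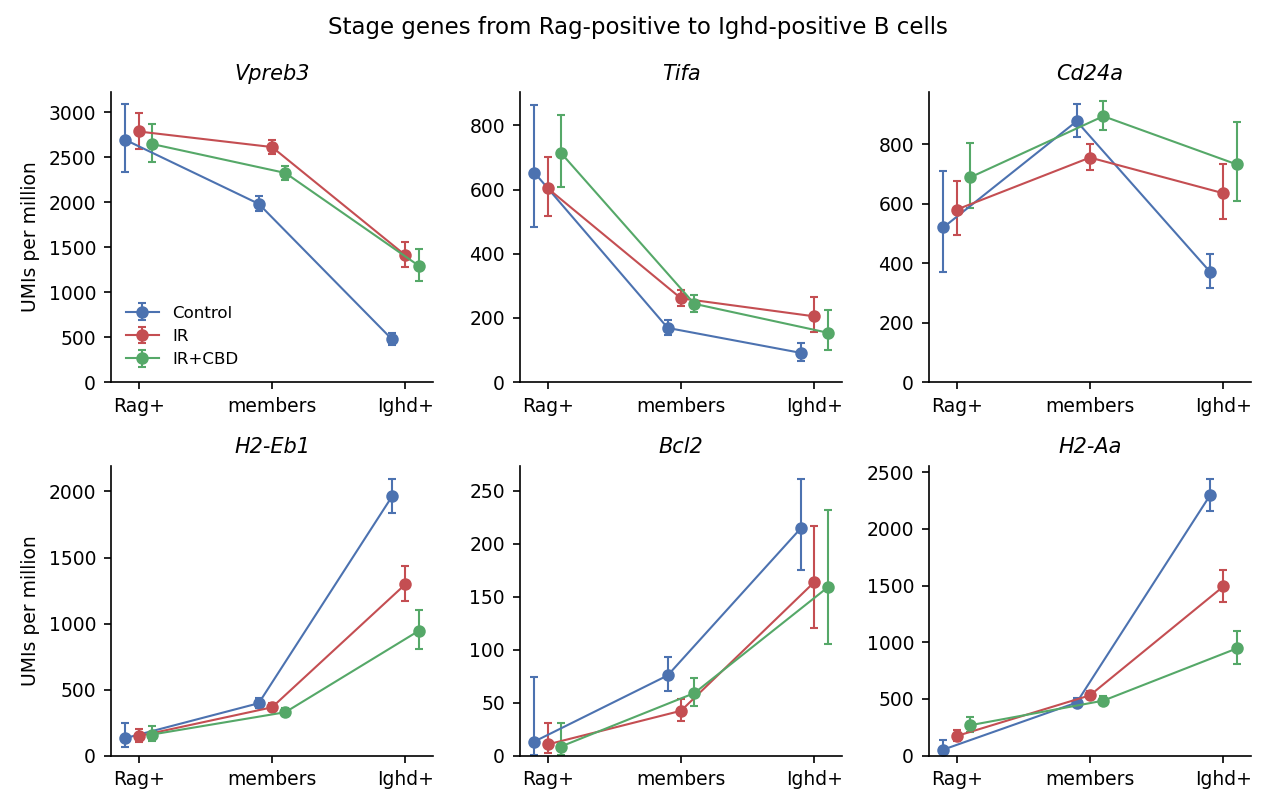
Levels of 6 genes (vertical axes, CPM, each from 0) in Rag-positive cells, members and Ighd-positive cells of each library, all under 20 other-lineage UMIs; points are sums over cells and bars are 95% Poisson intervals. Vpreb3 and Tifa step down. Cd24a is highest in the members, with intervals that overlap those of the Ighd-positive cells in IR and IR+CBD. H2-Eb1, Bcl2 and H2-Aa are highest in the Ighd-positive cells, where the Control library lies furthest from the members.

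The members differed among themselves in their light chains. The mouse makes its antibodies with either a kappa chain (Igkc) or a lambda chain (Iglc1, Iglc2 and Iglc3), and most mouse B cells carry kappa. Both constant regions were found at 5 or more UMIs in 203 of 333 members in Control (61.0%), in 332 of the 451 IR members (73.6%) and in 312 of the 471 IR+CBD members (66.2%). The median member held 28, 34 and 30 Igkc UMIs and 16, 24 and 16 UMIs of Iglc1 to Iglc3. In neutrophils 6.32%, 8.43% and 7.58% had a UMI of the lambda constant regions and 23.3%, 24% and 22.8% a UMI of Igkc. By a rule that asks kappa cells to hold 5 or more Igkc UMIs and at least 10 times as many of them as lambda UMIs, 57, 57 and 79 members were kappa (17.1%, 12.6% and 16.8%). By a rule that asks lambda cells to hold 5 or more lambda UMIs and at least as many of them as Igkc UMIs, 121, 180 and 157 were lambda (36.3%, 39.9% and 33.3%), and the rest were not assigned. Iglc2 and Iglc3 are nearly identical, so counts of one could be lost or given to the other, and a transcript of an unrearranged lambda locus counts like a rearranged one.

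Some members had lambda UMIs with next to no kappa. This group held 57, 57 and 60 members (17.1%, 12.6% and 12.7%) with under 5 Igkc UMIs and 5 or more lambda UMIs. Its median was 0 Igkc UMIs and 47, 56 and 49.5 lambda UMIs. The opposite pattern, 5 or more Igkc UMIs and under 5 lambda UMIs, was at least as frequent. It was found in 66, 58 and 88 members (19.8%, 12.9% and 18.7%). In Rag-positive cells the lambda pattern was seen in 40.0%, 25.3% and 41.5% of cells. The counting intervals were 21.1 to 61.3, 16.0 to 36.7 and 29.4 to 54.4. The opposite pattern was seen in 4.00%, 4.00% and 9.23% of them. Levels of 3 stage genes also differed between the kappa class and the members not assigned. The kappa class was low in H2-Eb1 and Bcl2 and high in Vpreb3. By the same rules few Rag-positive cells were kappa (0, 4 and 6 cells) and most were lambda (76.0%, 69.3% and 75.4%). The rules are unequal: kappa asks for 10 times the other chain and lambda only for as many UMIs. Both chains were at 5 or more UMIs in 52.0%, 70.7% and 46.2% of Rag-positive cells, so these class shares depend on the rules. The H2-Eb1 level of the kappa class was 217, 70.1 and 138 CPM. That was below the lambda class (323, 262 and 241 CPM) and the members not assigned (528, 508 and 442 CPM). Bcl2 showed the same order, at 27.1, 10.0 and 20.2 CPM in the kappa class, 38.5, 24.5 and 42.4 CPM in the lambda class and 124, 62.6 and 81.6 CPM in the rest. The kappa values of Bcl2 rest on 6, 2 and 5 UMIs, and their intervals overlapped those of the lambda class in each library. Vpreb3 was highest in the kappa class, at 2687, 4184 and 3667 CPM. It was at 1971, 2389 and 2121 CPM in the lambda class and 1693, 2389 and 2009 CPM in the members not assigned. The Poisson intervals of the kappa class and the members not assigned did not overlap for these 3 genes in any library. H2-Aa was at 308, 115 and 304 CPM in the kappa class, 285, 364 and 357 CPM in the lambda class and 671, 747 and 620 CPM in the rest. In Control its kappa level was thus not below the lambda level.

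**Figure D4:**
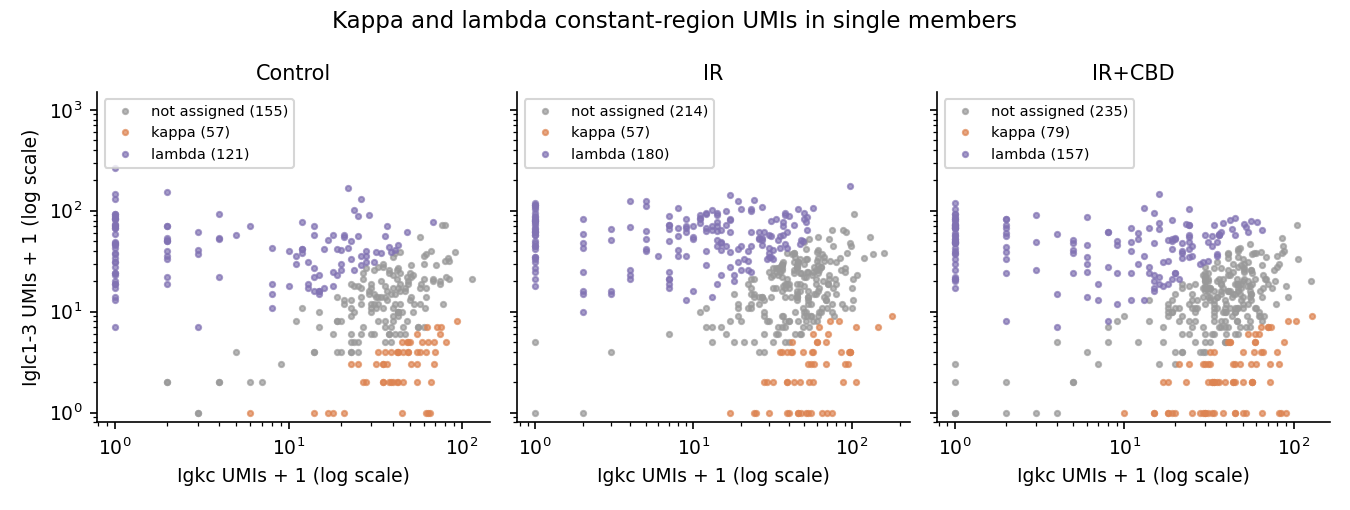
Igkc UMIs plus 1 (horizontal axis, log scale) against summed Iglc1 to Iglc3 UMIs plus 1 (vertical axis, log scale) in each member under 20 other-lineage UMIs; colours give the light chain class and the legend its number of cells. A column of cells at 0 Igkc UMIs with many lambda UMIs stands apart from the main cloud, in which both are present.

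Interferon response genes were high in IR and near the Control level in IR+CBD. Summed over all 72 genes of the list, without a filter, they stood at 4158, 8683 and 4588 CPM (Control, IR and IR+CBD, the order kept below). The IR to Control ratio was 2.09 (2.02 to 2.16) and the IR+CBD to IR ratio was 0.528 (0.513 to 0.544). Ifi27l2a (ENSMUSG00000079017), an interferon-inducible gene of the Ifi27 family, was at 509, 2718 and 698 CPM and gave a large part of the IR sum. Without it the list stood at 3648, 5964 and 3891 CPM. The same genes summed over every other cell of the libraries stood at 2355, 4063 and 2135 CPM, with the IR library again the highest. The 2 comparisons share the IR library, and a gene that is high there by counting error is high in the first and low in the second.

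Genes were compared where the 2 libraries of a comparison together held 50 or more UMIs, and a gene was called where its CPM differed by 1.5 times or more. In IR against Control, 36 of the 47 interferon genes compared were called higher and 0 lower, beside a background over all 6651 genes of 5.02% higher and 4.99% lower. The median log2 ratio of the 47 was 1.01 (interval of the median 0.81 to 1.19), beside -0.05 over all genes. In IR+CBD against IR, 34 of 48 were called lower and 0 higher, beside 3.20% lower and 3.96% higher over 6969 genes, and the median was -0.90 (-1.25 to -0.66) beside 0.04. In IR+CBD against Control the background was 3.57% higher and 3.13% lower, and 5 of 35 interferon genes had an interval above 1. A gene that passed the 50-UMI limit only through the IR library had to differ, which is why the sum over the whole list is given first.

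Sensors and effectors of the response differed by several fold. Rtp4 (ENSMUSG00000033355), a chaperone of membrane receptors, was at 9.69, 73.0 and 8.25 CPM, from 11, 117 and 12 UMIs. Isg15 (ENSMUSG00000035692), a ubiquitin-like modifier, was at 7.05, 51.2 and 12.4 CPM, and Usp18, the protease that removes it and damps the interferon receptor, at 6.17, 35.6 and 4.81 CPM. Ddx60, an RNA helicase of antiviral defence, had 1, 49 and 6 UMIs, and its IR to Control ratio of 34.7 had an interval of 5.94 to 1399. Over all members the IR to Control ratios of Ddx60 and Isg15 were 7.28 and 4.53. Iigp1, an interferon-inducible GTPase that was under the 50-UMI limit, had 0 UMIs in Control, which allows up to 2.64 CPM, 23.7 CPM in IR and 0 UMIs in IR+CBD, which allows up to 2.06 CPM. Each of these was high in IR alone.

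The Schlafen and Ifi200 families followed. Slfn2, needed for lymphocyte quiescence, was at 82.8, 239 and 89.3 CPM, and Slfn5 at 7.05, 51.2 and 9.62 CPM. Over all members the ratios of Slfn5 were 3.82 for IR to Control and 0.288 for IR+CBD to IR, against 7.26 and 0.188 here. Ifi213 was at 19.4, 93.0 and 21.3 CPM and Ifi206 at 19.4, 69.3 and 22.7 CPM, and members of both families share sequence, so their counts may be split between them. The transcription factor genes Irf9 and Stat2 were also highest in IR, Irf9 at 35.2, 71.8 and 33.7 CPM and Stat2 at 25.5, 35.6 and 22.7 CPM. Ly6e and Sp100, also interferon targets, were at 1068, 1311 and 1177 CPM and 388, 434 and 369 CPM, under the 1.5-fold limit in each comparison.

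MHC class I genes were high with them and MHC class II genes were not. H2-Q7, a non-classical class I gene, was at 150, 598 and 206 CPM, with an IR to Control ratio of 4.00 (3.39 to 4.73), and H2-Q6 at 108, 327 and 168 CPM; both are close copies of other H2-Q genes and their counts are uncertain as single genes. The classical H2-K1 was at 616, 1268 and 689 CPM and B2m, the shared light chain of class I, at 1259, 2343 and 1470 CPM. Of 22 class I genes compared, 12 were called higher and 0 lower in IR against Control, and 10 lower and 1 higher (Erap1) in IR+CBD against IR. Over all genes 5.02% were called higher and 4.99% lower in the first comparison, and 3.20% lower and 3.96% higher in the second. The class I list summed to 5626, 9338 and 6262 CPM, and over all other cells to 5297, 6748 and 5496 CPM. Of 11 class II genes compared, 0 were called in either comparison, and the class II list summed to 2168, 2376 and 2299 CPM (1175, 1279 and 1370 CPM over all members).

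**Figure D5:**
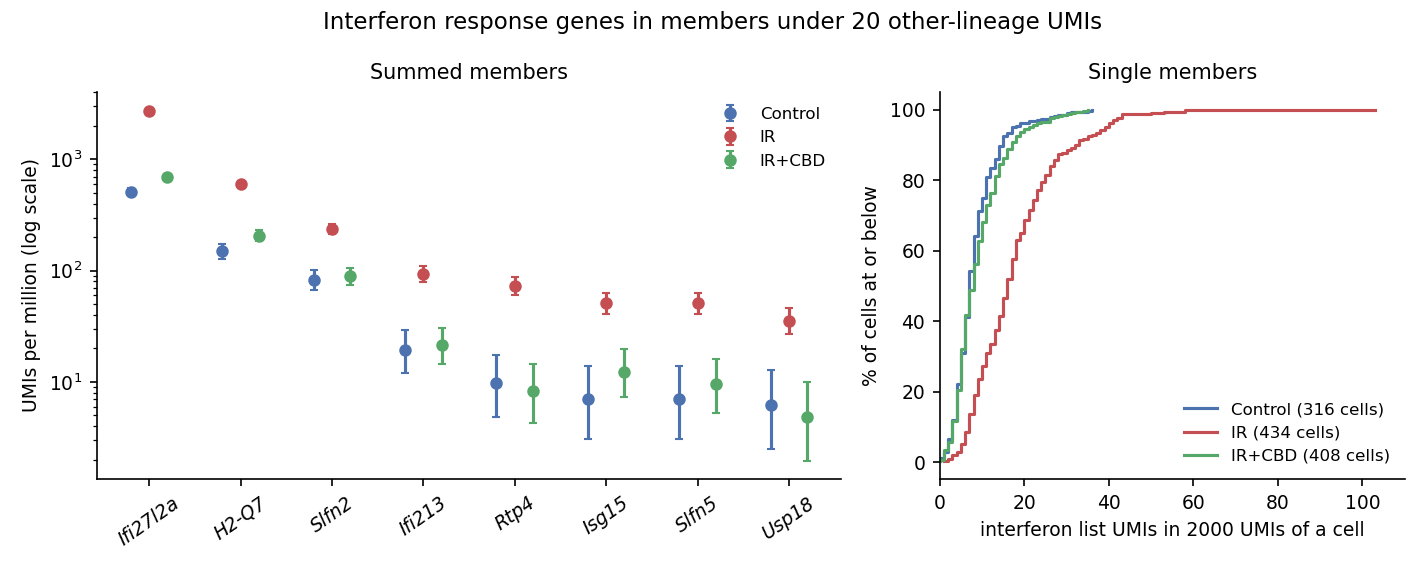
Left, levels of 8 interferon-responsive genes (vertical axis, CPM, log scale) summed over members under 20 other-lineage UMIs in each library, with 95% Poisson intervals. Right, percent of single members (vertical axis) at or below a given number of interferon list UMIs after thinning each cell to 2000 UMIs (horizontal axis); the whole IR curve lies to the right, with a median of 16 UMIs against 7 in Control and 8 in IR+CBD.

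The difference lay across the cells and not in a few of them. With each member thinned to 2000 UMIs, the lowest, median and highest number of interferon list UMIs per cell were 0, 7 and 36 in 316 Control cells, 1, 16 and 103 in 434 IR cells and 0, 8 and 35 in 408 IR+CBD cells. Shallower members, 17, 17 and 63 of them, were left out. The 10th percentile of the IR cells was 7 UMIs, the same as the median of the Control cells. Ifi27l2a was detected in 38.6%, 87.6% and 48.8% of the thinned members (45.6% of members unthinned in Control and 93.3% in IR), and in 6.71%, 37.9% and 6.58% of thinned neutrophils. By stage, Ifi27l2a was at 280, 2718 and 636 CPM in Rag-positive cells and 432, 2841 and 602 CPM in Ighd-positive cells. The members were at 509, 2718 and 698 CPM. In Control the Rag-positive value rested on 21 UMIs, and its interval (173 to 428) lay below that of the members (468 to 552).

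The promoters of these genes were searched for the element that the interferon complex binds. The motif GAAANNGAAA was looked for on both strands in the 250 bases before the transcription start of RefSeq genes on the build GRCm38.p6; the processing notes of the series name GRCm39, so these are positions on the reference table and not on the build of the counts. A match was found for 26 of the 56 interferon list genes in the table (46.4%), 3 of 20 MHC class I genes (15.0%), 1 of 21 B cell receptor signalling genes (4.76%) and 936 of all 27025 genes (3.46%). Of the 13 genes that were among the 10 highest in IR against Control or the 10 lowest in IR+CBD against IR, 9 were in the table and 4 held a match. The stretches around the match are printed for those 4 and for B2m, which holds 1 of the 3 class I matches, with the matched bases in capitals.
Isg15, chr4:156200855-156200916, minus strand: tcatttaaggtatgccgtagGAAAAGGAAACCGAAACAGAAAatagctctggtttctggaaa
Ddx60, chr8:61928014-61928063, plus strand: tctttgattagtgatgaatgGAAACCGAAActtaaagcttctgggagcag
Ifi213, chr1:173599316-173599365, minus strand: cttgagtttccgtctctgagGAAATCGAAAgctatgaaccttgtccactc
Slfn5, chr11:82951927-82951976, plus strand: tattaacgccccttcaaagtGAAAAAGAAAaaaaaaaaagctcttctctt
B2m, chr2:122147528-122147577, plus strand: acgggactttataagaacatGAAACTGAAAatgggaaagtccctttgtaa
The Isg15 stretch holds 3 overlapping matches beginning 78 bases before the start of transcription, and Ddx60 holds a second match nearer its start. A match describes letters in this window and does not show binding.

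Genes lower in IR than in Control included several of later B cell stages. Fcer2a (ENSMUSG00000005540), the CD23 antigen of follicular B cells, was at 55.5, 15.0 and 18.6 CPM, with an IR to Control ratio of 0.270 (0.161 to 0.438). Cr2, the complement receptor CD21, was at 23.8, 10.6 and 10.3 CPM, with too few UMIs to be compared and with Poisson intervals that overlapped. Bank1 (ENSMUSG00000037922), an adaptor of the B cell receptor, was at 1103, 640 and 919 CPM, and the ratio of IR+CBD to IR was 1.44. Cd83 was at 109, 58.0 and 70.8 CPM and Rgs1 at 75.8, 35.6 and 58.4 CPM. For Fcer2a both irradiated libraries lay below Control. For Bank1 the IR library was the lowest.

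The signalling list leaned the same way as Bank1. Of 24 B cell receptor signalling genes compared in IR against Control, 3 were called lower (Bank1, Vav1 and Inpp5d) and 0 higher. The shares over all genes were 4.99% lower and 5.02% higher. By any amount 21 were lower, and the median log2 ratio was -0.26 (-0.44 to -0.04) beside -0.05 over all genes. In IR+CBD against IR the median was 0.26 (0.08 to 0.35) beside 0.04. Only Vav1 was called higher there, beside 3.96% over all genes. The whole list summed to 9398, 7887 and 9114 CPM in members and to 1895, 1591 and 1627 CPM in all other cells. Its IR to Control ratio was 0.839 in members and 0.840 in all other cells, so the lower level in IR was not particular to the members. Its IR+CBD to IR ratio was 1.16 in members and 1.02 in all other cells. Rag-positive cells had 1.16 (1.09 to 1.23) and Ighd-positive cells 1.17 (1.09 to 1.24), so the members did not differ from the neighbouring stages. Vav1, an exchange factor downstream of the receptor, was at 79.3, 48.0 and 85.2 CPM, and Prkcb, the kinase that links the receptor to NF-kB, at 586, 421 and 537 CPM. The receptor chains themselves were higher in IR: Cd79a was at 2495, 2995 and 2621 CPM and Cd79b at 1859, 2346 and 2037 CPM, both under the 1.5-fold limit.

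Some genes of the earlier stage were higher in IR than in Control. Lef1, a transcription factor of pro-B cells, was at 60.8, 101 and 94.2 CPM, and Tifa was called higher with it. Il2ra (CD25), a marker of pre-B cells, was at 25.5, 44.3 and 24.7 CPM, high in IR alone. Of 13 genes of the pre-B and immature list compared, 3 were called higher in IR against Control and 0 lower, and 2 (Il7r and Il2ra) were called lower in IR+CBD against IR. Only Lef1 of the 13 was called in IR+CBD against Control, where the median log2 ratio was 0.06 (-0.05 to 0.23). Over all genes, 5.02% were called higher and 4.99% lower in IR against Control. The shares were 3.96% and 3.20% in IR+CBD against IR, and 3.57% and 3.13% in IR+CBD against Control. Of the peripheral maturation genes, 2 of 16 were called higher (Ccr7 and Ltb) and 3 lower (Fcer2a, Cxcr5 and Cd86), so that list had no single direction. Ccr7, the receptor that guides lymphocytes to the T zone, was at 92.5, 148 and 138 CPM. Of 29 B-lineage transcription factors, 1 was called higher (Lef1) and 1 lower (Klf3, with a ratio of 0.479 here and 0.981 over all members). Both counts were near the shares over all genes. Ebf1 and Pax5, which fix B cell identity, were at 5175, 4654 and 4848 CPM and at 1104, 1003 and 1087 CPM.

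Genes of cell death and stress were called in both directions, beside the background in IR against Control of 5.02% higher and 4.99% lower. Of 10 BCL2 family genes compared, 2 were called higher (Pmaip1 and Bad) and 1 lower (Bcl2). Of 26 immediate early and NF-kB genes, 4 were called higher (Jun, Nfkbia, Cd69 and Ppp1r15a) and 3 lower (Nr4a1, Cd83 and Rgs1). Bcl2 was at 75.8, 42.4 and 59.1 CPM, with an IR to Control ratio of 0.560 (0.401 to 0.779). Pmaip1 (NOXA), a p53 target that promotes cell death, was at 17.6, 40.6 and 30.9 CPM, and Bbc3 (PUMA), under the 50-UMI limit in that comparison, at 8.81, 24.3 and 28.2 CPM. Cdkn1a, the p53 target that halts the cell cycle, was at 10.6, 8.11 and 6.87 CPM, from few UMIs. Of 12 p53 targets compared in IR against Control, 2 were called higher (Pmaip1 and Ei24), and of 13 in IR+CBD against IR, 0 were called. Jun was at 213, 416 and 256 CPM and Nfkbia, which feeds back on NF-kB, at 294, 464 and 331 CPM. Fos and Egr1 were at 83.7, 93.0 and 90.7 CPM and 189, 225 and 212 CPM. Over all members, which include the mixed cells, the IR to Control ratios of Jun, Fos and Egr1 were instead 0.709, 0.370 and 0.570, that of Nr4a1 was 0.273 against 0.463 here, and the IR+CBD to IR ratio of Jun was 1.06 against 0.616 here.

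Of 12 genes on the list of cannabidiol targets and cannabinoid receptors, 5 had no UMI in any library and 4 had enough to be compared. Cnr2, the cannabinoid receptor of immune cells, was at 66.9, 99.2 and 105 CPM, and after thinning it was found in 12.7%, 15.9% and 19.1% of members and 6.24%, 2.72% and 4.47% of neutrophils (unthinned, 19.2%, 24.6% and 26.8% of members and 27.2%, 21% and 23.6% of neutrophils). Cnr1, Trpv1, Trpv4, Pparg and Htr1a had 0 UMIs in each library, which allows up to 2.64, 1.87 and 2.06 CPM. Gpr18, Trpv2 and Fabp5, a carrier of fatty acids and cannabinoids, were at 23.7 to 43.2 CPM and none was called in either comparison. Gpr55, Adora2a and Faah had between 0 and 10 UMIs in each library.

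The remaining genes at the ends of the ranking had no common list. Nav2 was at 18.5, 83.6 and 39.2 CPM, Serpina3g, a protease inhibitor, at 6.17, 36.8 and 8.93 CPM, and A330040F15Rik at 7.93, 65.5 and 13.7 CPM. Ly6a (Sca-1) was at 21.1, 75.5 and 12.4 CPM; its IR to Control ratio was 3.57, and 1.19 over all members, and its IR+CBD to IR ratio 0.164, and 0.347 over all members. Over all members the IR to Control ratios of Nav2 and Serpina3g were 2.57 and 2.10, against 4.52 and 5.97 here, and the IR+CBD to IR ratio of Serpina3g was 0.497, against 0.243 here. On the low side, Agbl1 was at 1049, 515 and 587 CPM against 22.3, 12.0 and 16.1 CPM in all other cells, and Pou2af2 at 34.4, 8.11 and 2.75 CPM against 0.453 or less. Ctla2a and Emb were at 41.4, 6.86 and 3.44 CPM and 50.2, 12.5 and 11.7 CPM, and Exoc6b at 44.0, 14.4 and 15.1 CPM. The neutrophil-progenitor genes Prtn3, Ctsg and Ms4a3 were also low in IR, at 356, 150 and 190 CPM, 208, 67.4 and 126 CPM, and 76.6, 28.7 and 44.0 CPM, against 3576, 3170 and 3683 CPM of Prtn3 in all other cells; the part of free RNA in these values was not tested. Over all members the IR to Control ratios of Ctla2a, Emb, Prtn3, Ctsg and Ms4a3 were 0.404, 0.711, 0.726, 0.832 and 0.814, against 0.166, 0.249, 0.423, 0.324 and 0.375 here.

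In IR+CBD against IR the genes with the highest ratios were Gm43305 (69.6, 70.5 and 193 CPM in Control, IR and IR+CBD), Slc15a2, a peptide transporter (22.9, 6.86 and 27.5 CPM), Tle3, a co-repressor (53.7, 28.7 and 63.2 CPM), and Zswim6 (116, 78.0 and 149 CPM). Wnt10a, a Wnt ligand, was at 35.2, 13.1 and 33.0 CPM in members and at 0.202 to 0.241 CPM in all other cells. Mllt3, Tusc3, Rmi1 and Togaram1 completed the list with Ctsg, at ratios of 1.88 to 2.48. In IR+CBD against Control 2 of these 10 genes had an interval above 1, Gm43305 at 2.78 (2.16 to 3.61) and Zswim6 at 1.28 (1.03 to 1.6), and the latter was under the 1.5-fold limit. Over all members the IR+CBD to IR ratios of Slc15a2, Tusc3, Rmi1 and Ctsg were 6.07, 1.31, 1.53 and 0.907, against 4.01, 2.48, 2.48 and 1.88 here, and that of Ms4a3 was 0.948 against 1.53. Apoe had the lowest ratio, 0.0580 (0.0154 to 0.155; 0.346 over all members), at 37.9, 47.4 and 2.75 CPM against 139, 168 and 144 CPM in all other cells. Bcl11a, a factor of early B cells, was at 335, 282 and 430 CPM and was called higher in IR+CBD against IR.

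Sums over all members, with the mixed cells included, were led by genes of other lineages. In IR against Control 6.33% of 9390 genes were called higher and 4.86% lower, and in IR+CBD against IR 3.31% of 9437 were called higher and 3.84% lower. Hemoglobin genes were the highest in IR against Control, with Hbb-bs at 2.43, 1209 and 94.6 CPM, followed by Gzma, Cldn13, Fcer1a, Klf1, Ccl5 and Iigp1. The lowest were antibody genes and genes of plasma and progenitor cells, with Jchain at 1620, 1.53 and 669 CPM and Ighg2b at 835, 0.255 and 0.664 CPM, together with Dntt, Wfdc17, Igkc and single variable genes. Among members under 20 other-lineage UMIs, Jchain was at 0.881, 2.50 and 12.4 CPM. The interferon list over all members stood at 3299, 5956 and 3438 CPM, with the same order of the libraries.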

How the data were processed

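Droplet 3' single-cell RNA libraries of pooled mouse marrow were analysed, 1 per group (Control, IR and IR+CBD). The authors deposited filtered matrices of raw UMI counts per gene and cell, made with Cell Ranger; the submitters' processing notes name version 4.0 and the build GRCm39, and the matrix headers name 7.0.1. The deposited counts were used without change and no value of the authors' comparisons was used. Barcodes with 200 or more genes and at most 5% mitochondrial UMIs were kept. The members, the gene lists and the tests were chosen with earlier results of these data known. Libraries were grouped by their labels and compared pairwise.

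UMIs were summed over members in each library and expressed per 1000000 of the library's sum (CPM). Intervals at 95% were Clopper-Pearson for shares, Poisson for CPM and conditional binomial for ratios of CPM, and cover counting error only. The log2 ratios behind list medians use a pseudocount of 0.5 UMI. Named genes were any list gene, and the 10 highest and 10 lowest by the interval bound nearest to 1 in IR against Control and in IR+CBD against IR, or by the least extreme of the 3 libraries' ratios for neighbouring stages. The sums over all members were the planned main values; sums without members holding 20 or more UMIs of 48 other-lineage genes were added after the data were seen. Doublets were predicted with Scrublet in scanpy 1.11.5 at 0.8% per 1000 cells and kept in the main values. Thinning drew 2000 UMIs per cell without replacement. Calculations ran in Python 3.11.15 with pandas 2.3.3 for tables and scipy 1.17.1 for intervals, and the scripts were tested on simulated counts. No file column was left unmapped. Depth was 177806843 to 206932522 UMIs per library. Some genes that met the rule for named genes are not reported here.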

Additional observations from a re-analysis of the deposited data

How the results depend on the processing

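No paired analysis was possible because each group is 1 library, and no replicate could be left out for the same reason. The share of cells kept its direction in IR and in IR+CBD against Control under every setting tried (ratios of 1.15 to 1.40 and 1.30 to 1.47), and IR+CBD against IR ran from 0.996 to 1.17. With B-lineage cells as the denominator the ratios were 1.15 for IR to Control and 1.17 for IR+CBD to IR. The interferon median kept its sign under every setting, from 0.48 to 1.12 in IR against Control and from -1.04 to -0.46 in IR+CBD against IR among members under 20 other-lineage UMIs; 0.48 and -0.46 came from the limit of 200 UMIs, which keeps fewer genes.

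Counts of genes called follow in the order higher and lower in IR against Control, then higher and lower in IR+CBD against IR. With a limit of 20 UMIs they were 980, 919, 680 and 709 over all members and 755, 791, 652 and 582 among members under 20 other-lineage UMIs. With 200 UMIs they were 162, 122, 57 and 80, and 55, 36, 29 and 28. With a fold limit of 2 they were 209, 114, 42 and 97, and 77, 46, 27 and 44. Over all members, weighting every cell the same gave 807 lower in IR against Control and 569 higher and 614 lower in IR+CBD against IR. Leaving out members with a UMI of 7 mitosis genes gave 328 higher in IR against Control and 230 lower in IR+CBD against IR, and leaving out the mixed cells gave 334 and 223. With ratios divided by their median, members under 20 other-lineage UMIs gave 397 higher and 266 lower in IR against Control, and 222 and 265 in IR+CBD against IR.

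Single genes turned direction over all members alone. In IR against Control, Apoe turned to 0.874 with cells weighted the same, 0.676 without predicted doublets and 0.968 without mitosis genes. Igkc turned to 1.21 without predicted doublets and 1.19 without the mixed cells, and Ctla2a to 1.55 without doublets. Egr1 turned to 1.10, 1.03 and 1.19 without doublets, mitosis genes and mixed cells, and Fos to 1.11 without mixed cells. In IR+CBD against IR, Igkc turned to 0.986 without doublets and Hbb-bs to 1.37 without mixed cells. The cause was not tested.

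With 1 library of 3 pooled mice per group, the spread between mice and between libraries is unknown, and no difference between groups can be told apart from one between libraries. At about this depth a gene under 2.64, 1.87 or 2.06 CPM in the Control, IR or IR+CBD members can go undetected. Shares depend on how the sorted fractions were remixed and on Ms4a1, of which many B cells had no UMI.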

Other observations

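Variable genes were read too sparsely to describe a repertoire. A kappa variable gene could be given to 25, 31 and 34 members under 20 other-lineage UMIs (Control, IR and IR+CBD), with 17, 18 and 25 different genes among them. The gene used most often was Igkv1-117 in Control, Igkv1-110 in IR and Igkv9-120 in IR+CBD, in 4 cells each. Heavy chain variable genes were assigned in 10, 7 and 13 members and lambda variable genes in 15, 14 and 14, of which Iglv1 accounted for 12, 8 and 10. Sequences of the variable genes can be alike, so single assignments are uncertain.

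A UMI of any of 7 mitosis genes was found in 35.4%, 23.5% and 21.9% of these members (Control, IR and IR+CBD) and in 58.0%, 57.6% and 55% of the deeper neutrophils, without thinning, so the Control members had the highest share. The G2 and M phase list summed to 644, 747 and 735 CPM, lowest in the Control members. Pcna, a clamp of DNA replication, was at 119, 149 and 150 CPM (Control, IR and IR+CBD), and Mki67 at 50.2, 73.0 and 55.7 CPM. Of 17 S phase genes compared in IR against Control, 3 were past the 1.5-fold limit in the higher direction (Tyms, Rrm2 and Tipin) and 0 in the lower one. Among 13 genes of the G2 and M phases, 3 were higher (Top2a, Kif11 and Nusap1) and 1 was lower (Ccnb2). Over all genes in that comparison, 5.02% were past the limit in the higher direction and 4.99% in the lower one. After thinning, Mki67 was found in 4.11%, 5.30% and 2.94% of members and in 18.2%, 12.6% and 16.6% of neutrophils of the same libraries, which hold dividing precursors (unthinned, 6.61%, 7.10% and 5.52% of members and 40.2%, 38.0% and 39.2% of neutrophils).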
